A study of Rattus norvegicus with 8 samples.

Results

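The 10 genes examined belong to the synaptonemal complex and the meiotic chromosome axis: Sycp2, Sycp3, Hormad1 and Hormad2 of the axis, Sycp1 of the transverse filament, Syce1, Syce2, Syce3 and Tex12 of the central element, and Majin, which attaches telomeres to the nuclear envelope. They were chosen by gene name, through the accession of each array probe and the rat RefSeq table, and all 10 were found, on 11 probes, among 15154 genes named on the array. Cells carrying CD9 had been isolated from Sprague Dawley rat testes on a flow sorter, and the rats of both groups carried a germ cell-specific green fluorescent protein transgene whose promoter is not given in the sources used here. One group came from rats of 4 months (young, 4 arrays) and the other from rats of 21 months (aged, 4 arrays), with no other treatment named. RNA was amplified from 18 ng per sample and hybridised to one-colour Agilent arrays. The labels do not say whether arrays of a group came from separate animals or from pools, so the p-values cover only how far these samples differ within a group, which may be technical.

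During prophase of the first meiotic division each chromosome folds into loops along an axis of cohesin, SYCP2, SYCP3 and the HORMA-domain proteins. Paired axes are then zipped together by SYCP1, whose ends meet in a central element built from SYCE1, SYCE2, SYCE3 and TEX12, while telomeres are held at the nuclear envelope by MAJIN with TERB1 and TERB2. In the testis these proteins act in spermatocytes, and some of the transcripts are already made in germ cells about to enter meiosis. CD9, the surface protein used for the sort, is carried by spermatogonia and by other cells as well.

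Outside the germ line many genes of this kind are held silent by a repressive complex that contains E2F6 and the MGA-MAX pair. E2F proteins bind TTCCCGC, and MGA-MAX, like other E-box factors, binds CACGTG. MYB proteins, among them MYBL1 of spermatocytes, bind CAGTTG. A promoter sequence was found for 7 of the 10 genes (Sycp1, Sycp2, Sycp3, Tex12, Hormad1, Hormad2 and Majin) in the RefSeq promoter table of build GRCr8, and the 250 bases before the gene start were searched for these elements on both strands. CACGTG was present in 3 of the 7 (Sycp3, Hormad1 and Tex12) and in 5.59% of the 33469 promoters of the table. TTCCCGC was present in 4 of the 7 (Sycp2, Hormad1, Tex12 and Majin) and in 3.36% of all, and CAGTTG in 2 (Sycp2 and Hormad1) and in 11.4% of all. No match overlapped another, and Sycp1 and Hormad2 held none of them. Only these exact strings were searched, so variant forms of the elements would be missed, in Sycp1 and Hormad2 too. The 4 promoters below show an axis gene with 2 E-boxes (Sycp3, plus strand, chr7:24761226-24761475), an axis gene with all 3 elements (Hormad1, plus strand, chr2:185805422-185805671), a central element gene with an E-box and an E2F element (Tex12, minus strand, chr8:59809559-59809808) and the transverse filament gene with none (Sycp1, minus strand, chr2:193145181-193145430). They are written 5′ to 3′ on the gene's strand, with the matches in capitals.
Sycp3: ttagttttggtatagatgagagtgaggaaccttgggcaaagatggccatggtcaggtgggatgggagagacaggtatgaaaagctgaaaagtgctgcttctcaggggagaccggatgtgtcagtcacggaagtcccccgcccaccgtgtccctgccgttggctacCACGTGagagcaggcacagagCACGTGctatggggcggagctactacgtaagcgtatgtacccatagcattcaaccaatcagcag
Hormad1: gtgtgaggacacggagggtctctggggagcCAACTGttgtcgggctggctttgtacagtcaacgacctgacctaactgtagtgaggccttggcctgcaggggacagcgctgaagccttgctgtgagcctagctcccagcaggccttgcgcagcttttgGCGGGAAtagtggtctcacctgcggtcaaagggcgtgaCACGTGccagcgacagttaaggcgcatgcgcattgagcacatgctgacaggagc
Tex12: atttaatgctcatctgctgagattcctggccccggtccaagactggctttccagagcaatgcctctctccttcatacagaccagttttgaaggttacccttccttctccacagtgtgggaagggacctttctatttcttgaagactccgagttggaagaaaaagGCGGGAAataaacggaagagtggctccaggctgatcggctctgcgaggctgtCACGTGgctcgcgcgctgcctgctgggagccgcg
Sycp1: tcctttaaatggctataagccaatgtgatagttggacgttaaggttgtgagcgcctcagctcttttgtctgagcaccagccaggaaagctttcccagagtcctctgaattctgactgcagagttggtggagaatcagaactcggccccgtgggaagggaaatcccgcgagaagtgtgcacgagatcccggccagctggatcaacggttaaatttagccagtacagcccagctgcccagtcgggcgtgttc

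Values are log2 processed signals minus the 75th percentile of the array's non-control probes, so that 1 unit is a doubling. That percentile lay between 326 and 524 intensity units, and 63.0% to 72.0% of an array's probes were well above background. All 10 genes were well above background on all 8 arrays, and no spot was saturated. Changes were tested with limma over 10236 genes, with Benjamini-Hochberg adjustment and a threshold of 0.05, which 67 genes passed (0.655%), 51 of them higher in aged cells (0.498%) and 16 lower (0.156%). The median of all genes was 0.11 higher in aged cells. Young replicate 1 stood apart from the other young arrays in markers of spermatids, stromal cells and macrophages, so results are also given without it. That choice rests on values already seen. Aged replicate 2 had the lowest aged means of the same lists (−1.20, −1.36 and −1.22, genes centred on their means over the arrays). Results without it are given among those for other single arrays. Dixon's outlier test of the 10 genes and their class means flagged 0 of 34 groups. All arrays shared 1 slide and 1 scan. Each age group filled its own row of that slide, so slide row and age cannot be told apart.

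All 10 genes had higher mean values in aged than in young cells, by 0.50 to 1.19 on the log2 scale (1.42-fold to 2.28-fold). Of these, 2 passed as higher after adjustment over all genes tested, Sycp3 of the axis and Syce1 of the central element, against 0.498% of all genes. The other 8 did not pass the test (adjusted p from 0.0547 to 0.138). The median change of the 10 was 0.73, against 0.11 for all genes. In 8 of the 10 every aged value lay above every young value, as was so for 10.2% of all genes. All 10 had an unadjusted p under 0.05 with the aged mean higher, against 17.8% of all genes. In bulk samples such as these, more cells of a type and more RNA per cell cannot be told apart.

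**Figure D1:**
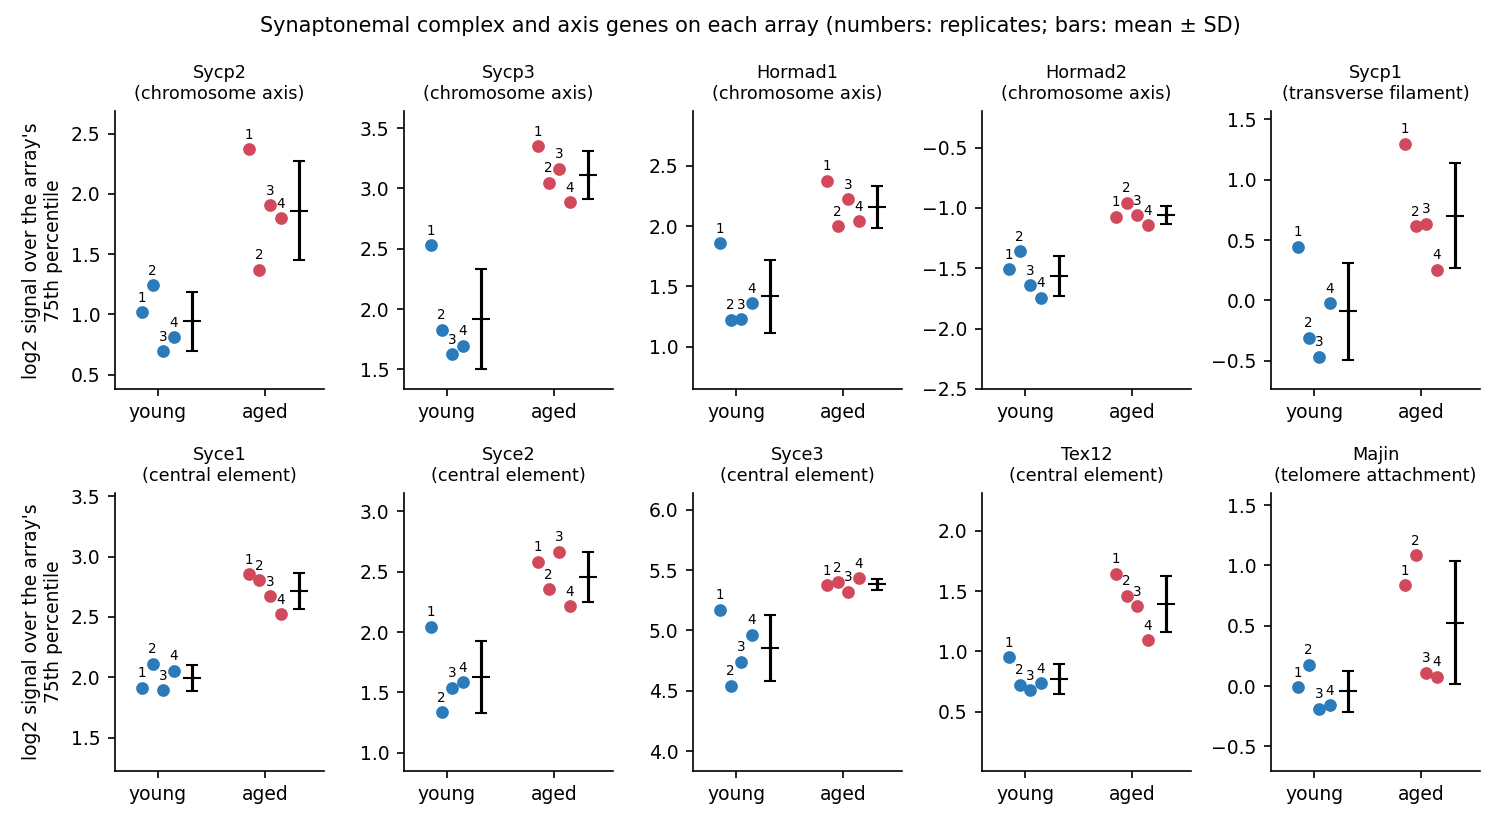
Log2 signal over the array's 75th percentile (vertical axis) of each of the 10 genes on the 4 young (blue) and 4 aged (red) arrays, numbered by replicate, with the mean ± SD of each group as a black bar; every panel spans the same number of log2 units. The aged points lie above all young points in each panel other than Sycp1 and Majin, and young replicate 1 is the highest young point for Sycp3, Hormad1, Sycp1, Syce2, Syce3 and Tex12.

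Sycp3 encodes the filament-forming protein of the axis. Its log2 signal was 2.53, 1.83, 1.63 and 1.70 on young replicates 1 to 4 and 3.35, 3.05, 3.17 and 2.88 on aged replicates 1 to 4. The groups did not overlap, and the highest young value was that of replicate 1. Sycp3 rose by 1.19 ± 0.20 (SE, n = 4 per group, adjusted p = 0.0465), a fold of 2.28 with a 95% interval of 1.66 to 3.14. Its change exceeded those of 99.9% of genes tested.

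Sycp2 encodes the large axis protein that binds SYCP3. Its values were 1.02, 1.24, 0.70 and 0.81 on the young arrays and 2.37, 1.37, 1.91 and 1.80 on the aged arrays. The groups did not overlap, but aged replicate 2 lay only a little above young replicate 2. The change was 0.92 ± 0.21 (adjusted p = 0.0561). The probe is spotted in duplicate, and on aged replicate 2 its spots read 2.09 and 0.65, a gap of 1.44 that the scanner software did not mark as an outlier. Without the dimmer spot, a choice made after the values were seen, the change was 1.10 ± 0.17 (adjusted p = 0.0457), and 3 of the 10 genes passed. The same removal took the calls over all genes from 67 to 95, although it altered 1 value. Many genes share an adjusted p just past the threshold: 211 genes, Sycp2, Hormad1, Hormad2 and Tex12 among them, stood at 0.0561.

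Hormad1 and Hormad2 encode HORMA-domain proteins that mark unsynapsed axes and leave them as synapsis proceeds. Hormad1, for which the axis promoter with all 3 elements is printed above, read 1.86, 1.22, 1.23 and 1.36 on the young arrays and 2.38, 1.999, 2.23 and 2.04 on the aged arrays. As for Sycp3, young replicate 1 was nearest to the aged values, and the groups did not overlap. The change was 0.74 ± 0.17 (adjusted p = 0.0561). Hormad2 read −1.51, −1.36, −1.64 and −1.74 on the young arrays and −1.07, −0.96, −1.06 and −1.14 on the aged arrays, with no overlap. Its change was 0.50 ± 0.11 (adjusted p = 0.0561). A dimmer probe of Hormad2 differed by 0.23, and its groups overlapped (−1.90 to −1.77 in young and −1.82 to −1.39 in aged cells).

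Sycp1 encodes the transverse filament, and its values spread by 0.40 (SD) in young and 0.44 in aged cells. They were 0.44, −0.31, −0.47 and −0.025 on the young arrays and 1.30, 0.61, 0.64 and 0.25 on the aged arrays. Young replicate 1 lay above aged replicate 4, so the groups overlapped. The change was 0.79 ± 0.25 (adjusted p = 0.0903), or 1.73-fold with a 95% interval of 1.16 to 2.58. Its duplicate spots differed by at most 0.13 on any array.

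Among the central element genes, Syce1 had the narrowest young group. Its protein lies in the middle of the complex beside SYCE3. Syce1 read 1.91, 2.11, 1.89 and 2.06 on the young arrays and 2.86, 2.80, 2.67 and 2.52 on the aged arrays. The groups were set well apart, and young replicate 1 lay within the range of the other young arrays. Syce1 rose by 0.72 ± 0.11 (adjusted p = 0.0465), a smaller change than that of Sycp3 but with a smaller error, 1.65-fold with a 95% interval of 1.38 to 1.97.

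Syce2, which forms with TEX12 the fibres that extend the central element, read 2.04, 1.34, 1.54 and 1.59 on the young arrays and 2.58, 2.36, 2.67 and 2.22 on the aged arrays. Young replicate 1 lay just below aged replicate 4, and the groups did not overlap. The change was 0.83 ± 0.17 (adjusted p = 0.0547). Tex12, its partner, read 0.95, 0.72, 0.68 and 0.73 on the young arrays and 1.65, 1.46, 1.38 and 1.09 on the aged arrays, again without overlap. Its change was 0.62 ± 0.14 (adjusted p = 0.0561).

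Syce3, a small protein needed to load the other central element proteins onto SYCP1, read 5.17, 4.54, 4.74 and 4.96 on the young arrays and 5.38, 5.40, 5.32 and 5.43 on the aged arrays. The aged values lay close together (SD 0.047, against 0.27 in young cells), above all young ones. The change was 0.53 ± 0.14 (adjusted p = 0.0702).

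Majin read −0.0095, 0.18, −0.19 and −0.16 on the young arrays and 0.84, 1.08, 0.11 and 0.077 on the aged arrays. Aged replicates 1 and 2 were high, while aged replicates 3 and 4 lay below young replicate 2. The change was 0.57 ± 0.23 (adjusted p = 0.138), with a 95% interval of 0.043 to 1.10.

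**Figure D2:**
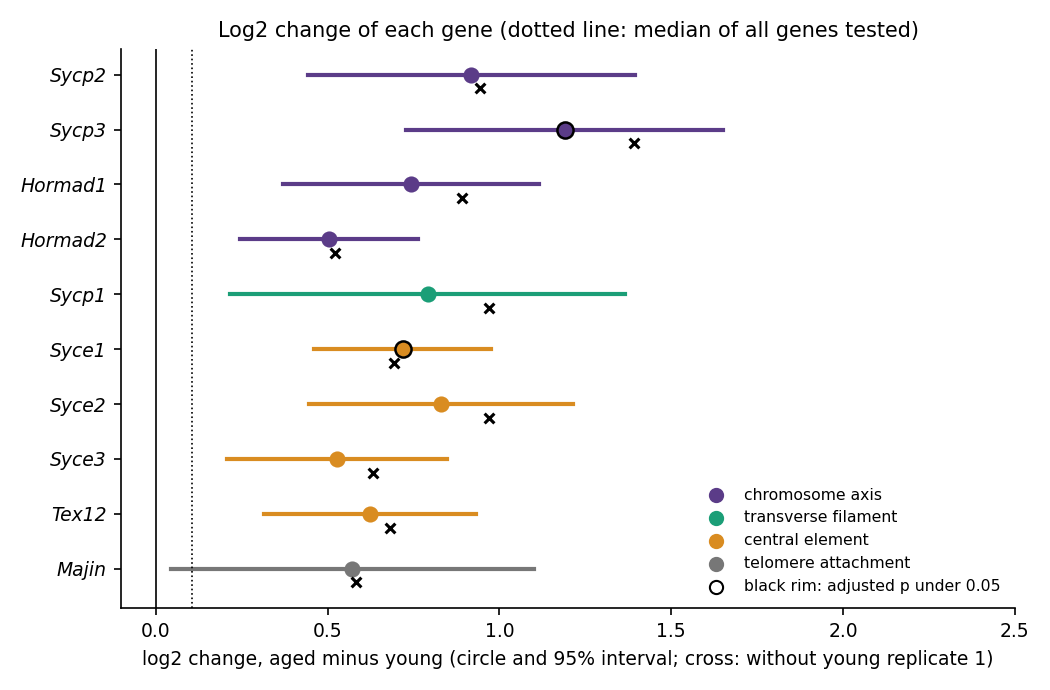
Log2 change, aged minus young (horizontal axis), of each gene with its 95% interval from limma, coloured by class, with crosses for the change without young replicate 1; the solid line marks 0 and the dotted line the median of all genes (0.11). Sycp3 (1.19) and Syce1 (0.72) have black rims as the genes that passed, and the interval of Majin alone reaches below 0.11.

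The classes were set side by side as means over their genes on each array, after the mean of each gene over the 8 arrays had been subtracted from it. No test was made of these means, since the genes were chosen with results known. The axis mean was 0.84 higher in aged cells (−0.62 to −0.12 on the young arrays, 0.27 to 0.66 on the aged), and the central element mean 0.67 higher (−0.47 to −0.13, then 0.17 to 0.47). Neither overlapped between the groups. Sycp1 alone, the transverse filament, stood at 0.79 with overlapping groups. On a single array the axis mean minus the central element mean ran from −0.25 to 0.11 in young cells and from −0.092 to 0.19 in aged cells. The difference in change of 0.16 between these classes therefore lay within overlapping ranges. Axis minus transverse filament likewise ran from −0.26 to 0.25 in young and from −0.34 to 0.35 in aged cells, with a difference in change of 0.048. Within a class the changes ran from 0.50 to 1.19 among axis genes and from 0.53 to 0.83 among central element genes. Set against Sycp1 on the same array, each of the other 9 genes gave young and aged ranges that overlapped, with differences in change from −0.29 (Hormad2) to 0.40 (Sycp3).

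**Figure D3:**
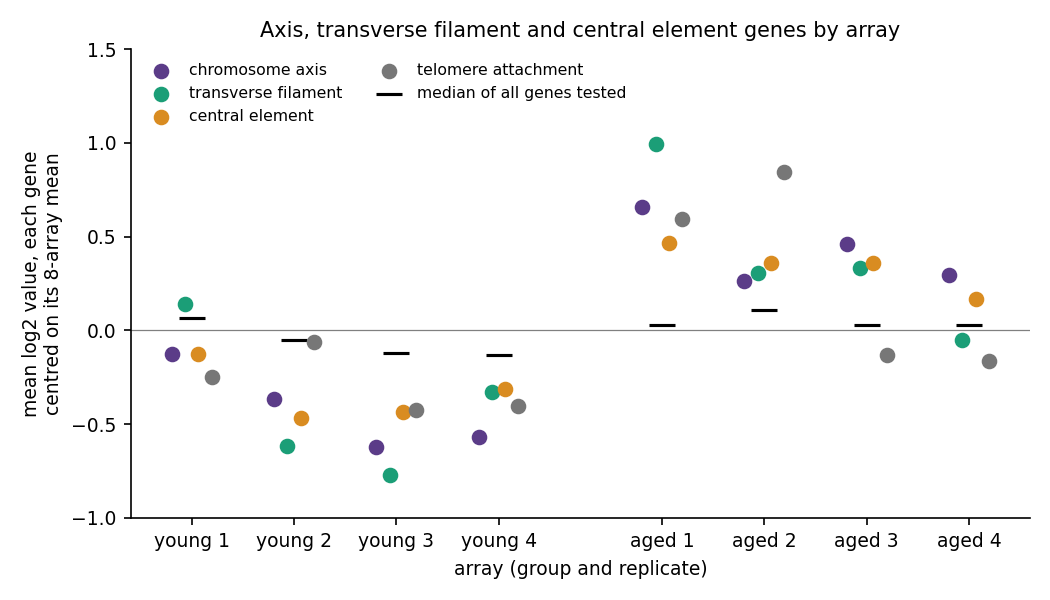
Mean log2 value of the axis (4 genes), transverse filament (Sycp1), central element (4 genes) and telomere attachment (Majin) genes on each array, as differences from the gene's own mean, with a bar for the median of all genes tested. The axis and central element points lie below 0 on all young arrays and above 0 on all aged arrays, while Sycp1 is above 0 on young replicate 1 and below 0 on aged replicate 4.

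Young replicate 1 bore on nearly every one of these calls. Without it, 9 of the 10 genes passed as higher, all but Majin (adjusted p = 0.116), against 22.3% of all genes. The changes were then 1.39 for Sycp3, 0.89 for Hormad1, 0.97 for both Sycp1 and Syce2, 0.94 for Sycp2, 0.69 for Syce1, 0.68 for Tex12, 0.63 for Syce3, 0.58 for Majin and 0.52 for Hormad2. Each was between 0.963 and 1.23 times its value with that array, so the calls moved more than the changes. With normexp background correction 6 of the 10 passed after percentile scaling (3.57% of all genes passed as higher) and 4 after quantile scaling (2.18%), and with the authors' log2 values 2 passed (0.537%). Leaving out any other single array left 0 of the 10 past the threshold in limma, and 0 or 1 of all genes, with 9 or 10 of the 10 and 19.1% to 29.4% of all genes at an unadjusted p under 0.05 in either direction.

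Lists of partners in pairing and recombination, fitted over the same genes, gave 7 calls among 25 genes tested, all higher (0.498% of all genes passed as higher). These lists too were drawn up with earlier results of these data known. Of the telomere pairing genes, 1 of 4 measured rose. This was Spdya, the cyclin-dependent kinase activator that acts with CDK2 at meiotic telomeres (1.01 ± 0.16, adjusted p = 0.0465), with values of 0.098 to 0.48 on the young and 0.96 to 1.66 on the aged arrays. Among the other 3, Terb2, the partner of MAJIN, had a change of 0.57 (adjusted p = 0.108), Cdk2 of 0.34 (adjusted p = 0.233) and Sun1, which spans the inner nuclear membrane, of −0.68 (adjusted p = 0.110). The meiotic cohesins, on which the axis is laid, gave 0 calls of 3 in limma, and all 3 had an unadjusted p under 0.05 with the aged mean higher, as did 17.8% of all genes. Stag3 had a change of 0.73 ± 0.14 (adjusted p = 0.0504), Smc1b of 0.42 ± 0.11 (adjusted p = 0.0708) and Rec8 of 0.47 ± 0.16 (adjusted p = 0.0934), with every aged value above every young value in each, as for 10.2% of all genes.

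Of the genes that form and govern DNA breaks on the axis, 0 of 5 measured passed in limma, with a median of 0.15 against the 0.11 of all genes (0.29 against 0.17 without young replicate 1, and 0.073 against 0.082 without young replicate 3). Mei1, needed for break formation, had a change of 0.44 ± 0.14 (adjusted p = 0.0869) and was the only one of the 5 at an unadjusted p under 0.05. Iho1, which binds HORMAD1 on the axis, had a change of 0.30 ± 0.23 (adjusted p = 0.381). Iho1 and Mei4 were dim, with young means of −3.64 and −3.25. Spo11, Top6bl, Prdm9 and Ankrd31 of this list were not tested, so the median does not cover them. Trip13, the ATPase that removes HORMA-domain proteins from synapsed axes, had a change of −0.15 (adjusted p = 0.475).

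Strand exchange genes gave 4 calls of 8, all higher. They were the single-strand binding pair Spata22 (1.43 ± 0.23) and Meiob (1.19 ± 0.17), the recombinase Dmc1 (0.84 ± 0.15) and its loader Brca2 (0.81 ± 0.14), with adjusted p of 0.0465 for the first 3 and 0.0484 for Brca2. The list median was 0.58. Of 5 measured genes for synapsis and crossing over, 2 rose, Msh4 (1.11 ± 0.18) and its partner Msh5 (1.19 ± 0.16, adjusted p = 0.0465 for both), and the list median was 0.44. Without young replicate 1, 6 of 8 passed as higher for strand exchange and 3 of 5 for synapsis and crossing over. The cohesins then gave 2 of 3, breaks 1 of 5 and telomere pairing 1 of 4, against 22.3% of all genes. In that setting 1 telomere pairing gene passed as lower, against 14.6% of all genes. Of the genes of these 5 lists, 16 were not tested, Six6os1 of the central element, Terb1 and Rad21l1 among them.

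**Figure D4:**
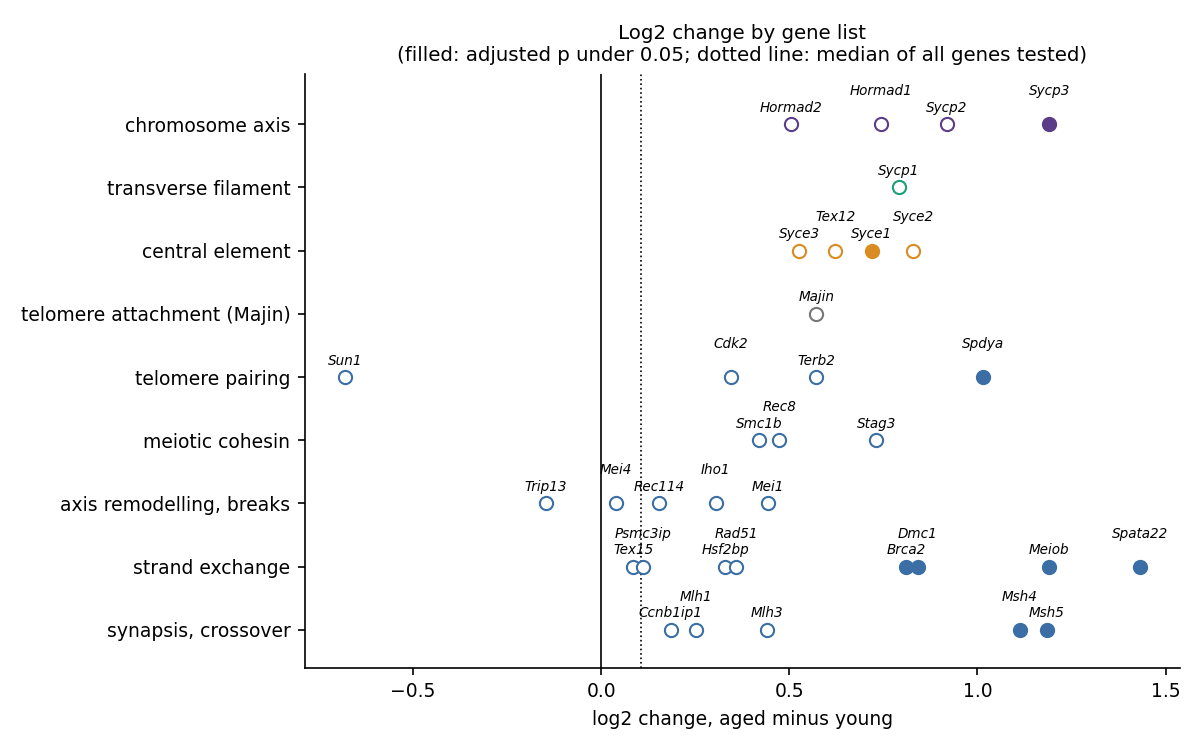
Log2 change, aged minus young (horizontal axis), of every tested gene of the complex and of its partner lists (rows); filled circles passed at an adjusted p under 0.05, open circles did not, and the dotted line marks the median of all genes (0.11). The complex and axis genes lie between 0.50 and 1.19, while the genes for axis remodelling and breaks lie between −0.15 and 0.44 and Sun1 lies at −0.68.

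List means of spermatid, later spermatocyte, stromal and macrophage markers were lower on all aged arrays than on young replicates 2 to 4. Young replicate 1 lay within the aged range in each of these lists. Centred in the same way, the mean of 17 spermatid markers was −0.52 on young replicate 1, against 0.59 to 1.13 on young replicates 2 to 4, and −1.20 to −0.14 across the aged arrays. All 17 had lower aged means (median −1.02), and 0 passed in limma. Without young replicate 1 all 17 passed as lower (median −1.28), against 14.6% of all genes. The list holds the sperm chromatin genes Prm1 (−0.66) and Tnp1 (−0.54), whose log2 signals were still 6.64 ± 0.58 and 6.86 ± 0.37 (SD) in aged cells. Genes of later spermatocytes had a median of −0.64 over 9 genes, with 0 calls in limma, and 2 of the 9 had higher aged means, Piwil1 (0.49, adjusted p = 0.301) and Mybl1 (0.23, adjusted p = 0.279). Piwil1 and Mybl1 were dim, with young means of −4.40 and −3.58. Among the other 7 the largest decrease was that of Ccna1 (−1.54, adjusted p = 0.0527). Ldhc, a glycolytic enzyme form of germ cells, stood at −0.94 (adjusted p = 0.149) and the chaperone Clgn at −0.50 (adjusted p = 0.151). Without young replicate 1, 5 of the 9 passed as lower and 0 as higher, against 14.6% and 22.3% of all genes. Their mean ran from −0.22 to 0.66 on the young and from −0.96 to −0.043 on the aged arrays, while that of the complex genes ran from −0.54 to −0.11 and from 0.16 to 0.61. Summed over each list, the log2 level of the spermatid markers was 8.64 to 9.96 on the young and 8.19 to 9.20 on the aged arrays, and that of the later spermatocyte genes 4.07 to 5.47 and 3.33 to 4.39. The part of these shifts in the changes of the complex genes was not tested.

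Markers of undifferentiated spermatogonia had a median of −0.16 over 11 genes with 0 calls in limma, and 2 of the 11 had higher aged means. Cd9 itself had a change of −0.16 (adjusted p = 0.492), the transcription factor Zbtb16 of −0.094 (adjusted p = 0.739), Uchl1 of 0.13 and the RNA-binding Nanos3 of −0.21. Larger decreases were those of Gfra1 (−0.89, adjusted p = 0.0742), Id4 (−0.52, adjusted p = 0.280) and Ret (−0.41, adjusted p = 0.104). For Ret, 1 of the 11, every aged value lay below every young value. The share of all genes separated in this direction was not computed, so this is a description only. Without young replicate 1, 1 of the 11 passed as higher and 1 as lower, against 22.3% and 14.6% of all genes. The mean of the 11 ran from 0.019 to 0.24 on the young and from −0.22 to −0.013 on the aged arrays. Lhx1 was well above background on 1 of 8 arrays and Id4 on 6. Differentiating spermatogonia had a median of −0.028 over 5 genes, with Sohlh2 at 0.25 and Dmrt1 at −0.028. The cyclin gene Ccnd2 stood at −0.79 (adjusted p = 0.0705). It was 1 of the 5 with every aged value below every young value, again without a share of all genes to set beside it. Without young replicate 1, 1 of the 5 passed as lower, against 14.6% of all genes. Stra8, Meiosin, Sohlh1 and Rhox13, also listed, had no named probe on the array, so the median does not cover them. Germ cell genes of several stages had a median of 0.26 over 4, with Dazl at 0.52, Mael at 0.0045 and Ddx4 at −0.21. Tex101 was the single call (0.75 ± 0.11, adjusted p = 0.0465), against 0.498% of all genes passing as higher. For this list 2 of the 4 passed as higher without young replicate 1, against 22.3% of all genes.

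For somatic cells, all 11 stromal markers had lower aged means (median −1.55), with Myh11 at −2.18 (adjusted p = 0.0802) and Col1a2 at −1.17 (adjusted p = 0.126). There was 1 call, the proteoglycan gene Cspg4, as lower, against 0.156% of all genes. Without young replicate 1 all 11 passed as lower (median −1.81), against 14.6% of all genes. Their mean was −0.59 on young replicate 1, against 1.05 to 1.22 on young replicates 2 to 4, and −1.36 to −0.31 across the aged arrays. The 7 macrophage markers had a median of −0.75 with 0 calls, Aif1 at −1.25 and Cd74 at −0.87, and Ptprc was well above background on 2 of 8 arrays. Their median was −1.15 without young replicate 1, where 4 of the 7 passed as lower, against 14.6% of all genes. The macrophage median was −1.24 without aged replicate 4, −0.44 without young replicate 2 and −0.43 without aged replicate 2. Sertoli markers were measured for 3 genes (median 0.59, Clu at 0.23 and Inha at 0.59), with 1 call, Rhox5, as higher, against 0.498% of all genes. But over the 8 on the array, dim probes included, the median was 0.079, and Amh was well above background on 4 of 8 arrays. Leydig markers had a median of −0.099 over 5 (Insl3 −0.099, Hsd3b1 −0.49), with Lhcgr above background on 0 of 8 arrays and Star on 1, and endothelial markers −0.41 over 4 (Kdr −1.02, Eng −0.71, Pecam1 −0.11, Cdh5 0.096), with Tek on 0. The endothelial median was −0.11 with dim probes included. Without young replicate 1, 2 of the 4 endothelial markers passed as lower, against 14.6% of all genes. The Leydig median lay between −0.25 and 0.099 when single arrays were left out. The complex genes share with these lists the arrays and the scaling, and a part of these cells in their changes was not tested.

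**Figure D5:**
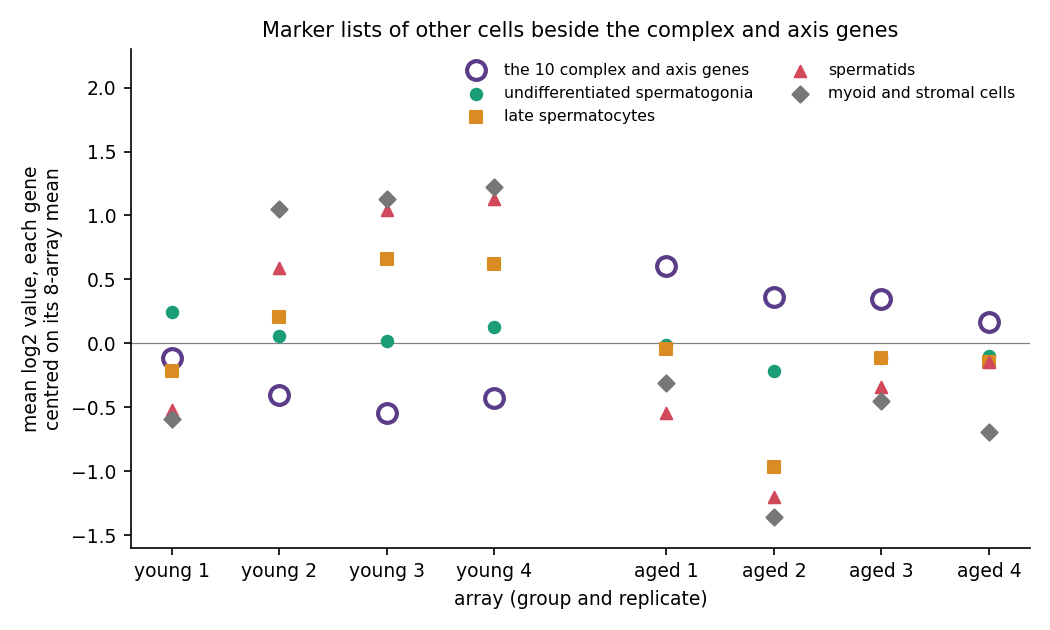
Mean log2 value on each array of the 10 complex and axis genes (open circles) and of 4 marker lists (filled symbols), as differences from each gene's own mean. The open circles are below 0 on the young arrays (−0.54 to −0.11) and above 0 on the aged arrays (0.16 to 0.61), while spermatid and stromal markers are above 0 on young replicates 2 to 4 and below 0 elsewhere.

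Of 10224 other genes with values on all arrays, the 5 whose centred profile lay nearest to the mean profile of the 10 were Iqcb1 (root mean square distance 0.054 on the log2 scale), Narf (0.057), Sts (0.080), Pabir2 (0.083) and Ap1s2 (0.086), against a median distance of 0.38. The nearness is a description over 8 arrays that share slide and scaling. Among the 10 themselves, Tex12 (0.093) and Hormad1 (0.12) lay closest to the mean of the other 9, and Majin (0.33), Sycp3 (0.30) and Sycp2 (0.29) farthest.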

How the data were processed

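The 8 arrays (4 young, 4 aged) were grouped by the age label. The processed signal the authors deposited is a linear intensity written by the scanner software, Agilent Feature Extraction 10.7.3.1 per the file headers and 12.5 per the submitters' processing notes, with probes designed on build rn4. Median signals of spots and of their surroundings were deposited as uncorrected intensity, and detection, saturation and outlier flags as 0 or 1. The authors also deposited log2 values of the whole series, centred per probe on the median over the arrays. Its differences between arrays followed the scanner values over 7563 bright probes (slope 1, r = 1), with offsets within 0.0040 of the percentile differences, so that scale and direction were settled. By column its medians stood at 0.093, −0.074, −0.14 and −0.057 (young 1 to 4) and −0.019, 0.051, 0.066 and −0.0029 (aged 1 to 4).

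Control and outlier spots were left out, spots of a probe were averaged in log2, and the 75th percentile over the 30367 non-control probes was subtracted. Accessions were matched without version to the RefSeq table of GRCr8, used for names only. Probes entered the fit where, on every array of 1 group, a share of 0.5 or more of their spots passed the background flag, and the probe with the highest mean stood for a gene. Aged and young arrays were compared with limma 3.58.1 in R 4.3.3 (with jsonlite 2.0.0), two-sided, adjusted over 10236 genes, and the fit was tested on simulated data. The simulated errors were independent between genes, with no shift shared by many genes of an array, so that test does not cover such shifts. The number of arrays limits the precision. The genes, lists and motifs were chosen with earlier results of these data known. The text names all 10 genes, up to 4 called genes or else 2 of each partner list, the 2 brightest genes of each marker list, and Cd9, Zbtb16 and Ddx4. Terb2, Cdk2, Sun1, Rec8, Trip13, Mei4, Piwil1, Mybl1, Ccna1, Gfra1, Id4, Ret, Ccnd2, Kdr, Eng, Mael, Tex101, Rhox5, Cspg4 and the dim markers were named after their values were seen. The 24 alternatives, 8 of them leaving out an array, covered scaling, background correction, filters, spots, probes, variance model, weights and the replicate number. The files hold no mean spot signal, so normexp used the median spot signal. Samples were not paired by replicate number in the main fit, although same-numbered arrays shared a slide column. Correlations across genes between same-numbered arrays were −0.26, −0.12, 0.44 and 0.35. The highest with another number were 0.69, 0.26, 0.51 and 0.36. With 4 arrays per group these values cannot exclude a pairing.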

Additional observations from a re-analysis of the deposited data

How the results depend on the processing

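All 10 changes stayed above 0 in all 24 alternatives. In some of these the sign could not differ. The filters, the variance trend, the unnamed probes and the replicate block left the changes of the 10 genes as they were. The authors' values follow the same scanner values. Sycp3 passed in 12 and Syce1 in 10 of the 24 alternatives, the others in 0 (Majin) to 6 (Hormad1). Of the 10 genes the number passing (and of all genes) was 1 (63) with quantile scaling, 9 (1330) with median scaling, 4 (259) and 6 (633) with normexp and quantile or percentile scaling, 6 (270) with a variance trend, 9 (4530) with array weights and 1 (1004, of which 998 lower) with scaling to 4 spike-in probes. It was 0 in limma with no scaling (0 of all genes), scaling to probes above background on all arrays (4), no filter (0), unnamed probes tested too (0) and the replicate number as a block (0), with 9 or 10 of the 10 genes at an unadjusted p under 0.05 in each, against 13.6%, 28.5%, 22.03%, 28.0% and 31.6% of all genes. Leaving out 1 array gave 0 to 9 genes of the 10 and 0 to 3776 of all. Among same-numbered arrays, none correlated best with its own number. The share of higher among all calls was 76.1%, against 57.7% with normexp and percentile scaling, 86.1% with normexp and quantile scaling, 60.4% without young replicate 1, 63.1% with array weights and 0.598% with spike-in probes. With spike-in probes the median of all genes moved from 0.11 to −0.35, Sycp3 to 0.74 (adjusted p = 0.0437), Syce3 to 0.073 and Hormad2 to 0.050, while the partner list medians stood at 0.13 (strand exchange), 0.019 (cohesins), 0.0044 (telomere pairing), −0.014 (synapsis and crossing over) and −0.30 (breaks). With median scaling the median of all genes was 0.26. Axis minus central element ran from 0.11 to 0.23. Axis minus transverse filament changed sign, at −0.0091 after quantile scaling, −0.020 where normexp came before it, and −0.060 to 0.17 when an array was left out. Hormad2 had a change of 0.37 with the mean of its probes.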
